A study of Zea mays with 6 samples.

Results

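Long noncoding RNA genes of the maize nuclear genome were examined in leaf RNA of plants under contrasting water supply. The genes were chosen by their class and their level: rows of the deposited expression table classed as lincRNA (long intergenic noncoding RNA), outside the plastid and mitochondrial genomes, with at least 1 FPKM (fragments per kilobase of transcript per 1000000 mapped fragments) in 3 or more of the 6 libraries. Of 2532 nuclear lincRNA rows, 213 (8.41%) met this rule, out of 45953 rows in the table.

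The LW group held 3 libraries of Zea mays leaf from plants under drought, kept supplied with water continuously at negative pressure (negative pressure irrigation). The CW group held 3 leaf libraries from plants of the soil moist treatment (drip irrigation). Irrigation method and soil moisture changed together and cannot be told apart, and the labels give neither cultivar nor plant age. Nothing in the labels says that the replicates were separate plants, so the p-values measure the spread between these libraries, which may be partly technical.

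Long noncoding RNAs of plants are mostly made by RNA polymerase II, and many are spliced and polyadenylated like messenger RNAs. Those with a known role act in several ways. In Arabidopsis, transcripts from the FLC locus take part in its silencing by cold, and IPS1 binds a microRNA during phosphate starvation. Such RNAs can also be a by-product of a neighbouring gene, for example a transcript that reads on past its 3′ end. None of the 213 rows carries a description in the table, so they are named below by identifier and described by level, position and neighbour. Positions are those of the deposited table, whose genome build is not given in the sources used here.

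Library totals were 62327457, 75763960 and 84084375 estimated counts in LW and 42927751, 52515760 and 64067543 in CW. Leaf markers were present in all libraries: 8 mesophyll genes summed to 961 to 2612 FPKM in LW and 1226 to 1747 FPKM in CW. The 3 bundle sheath genes (2 Rubisco small subunits and phosphoenolpyruvate carboxykinase1) summed to 1854 to 2688 FPKM in LW and 5103 to 22091 FPKM in CW. The meristem genes knotted1 and rough sheath1 were at 0 in every library. The 23 pollen-type rows summed to 36.4 to 63.6 FPKM in LW and 37.6 to 47.7 FPKM in CW, and 25 seed storage rows (19 at 0 throughout) to 1.46 to 2.68 FPKM in LW and 0.57 to 2.77 FPKM in CW. CW replicate 3 stood apart from the other CW libraries: it had the lowest bundle sheath sum of the group, and plastid rows held 0.0117% to 0.0495% of counts in LW, 0.380% and 0.291% in CW replicates 1 and 2, and 0.0669% in CW replicate 3. Values without it are given for the genes below whose call or size turns on it.

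Most annotated maize lincRNA genes gave few or no counts in these leaf libraries. The labels' protocols give poly(A) isolation, so RNA without a poly(A) tail may have been missed. No library had a count in 1585 of the 2532 rows, and 357 had enough counts to be tested, all 213 chosen genes among them. At the same threshold, 19233 of 39005 nuclear protein-coding rows (49.3%) were present. The chosen genes were also lower: their mean over the 6 libraries had quartiles of 1.66, 3.13 and 9.30 FPKM, against 3.07, 7.25 and 19.2 FPKM in protein-coding rows at the threshold. At the top end the classes were close, with 10 lincRNA genes (4.69%) and 4.66% of protein-coding rows at a mean of 100 FPKM or more. The annotated spans were short, with a median of 703 bases and a range of 200 to 29227 bases, against a median of 3703 bases for protein-coding rows.

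The rule was met in all 6 libraries by 95 genes, in 5 by 38, in 4 by 40 and in exactly 3 by 40. Just inside the threshold, the third-highest value was 1.00 FPKM in both Zm00001d001166 and Zm00001d026935. Just outside it, the third-highest value was 0.99 FPKM in Zm00001d022953 and 0.98 FPKM in Zm00001d000659. Of the genes present in 3 libraries, 5 passed through the 3 LW libraries and 7 through the 3 CW libraries, so that a difference between groups was built into their choice.

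Despite their class name, many of these genes did not lie apart from protein-coding genes. The annotated span of 50 (23.5%) overlapped a protein-coding row on the same strand, and that of 11 more (5.16%) overlapped one on the other strand. A further 34 (16.0%) lay within 1 kb of a protein-coding row, 50 (23.5%) at 1 to 10 kb, and 68 (31.9%) farther than 10 kb. In all 61 of 213 (28.6%) overlapped a protein-coding row, against 357 of the 2319 lincRNA rows below the threshold (15.4%). The median gap was 1541 bases and the largest 305402 bases. Another lincRNA row was overlapped by 18 of them. Whether counting used strand is not given in the sources used here, so the split of reads between overlapping rows is uncertain for all of these. The share of lincRNA rows that met the rule ran from 5.78% on chromosome 10 to 10.9% on chromosome 8.

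**Figure D1:**
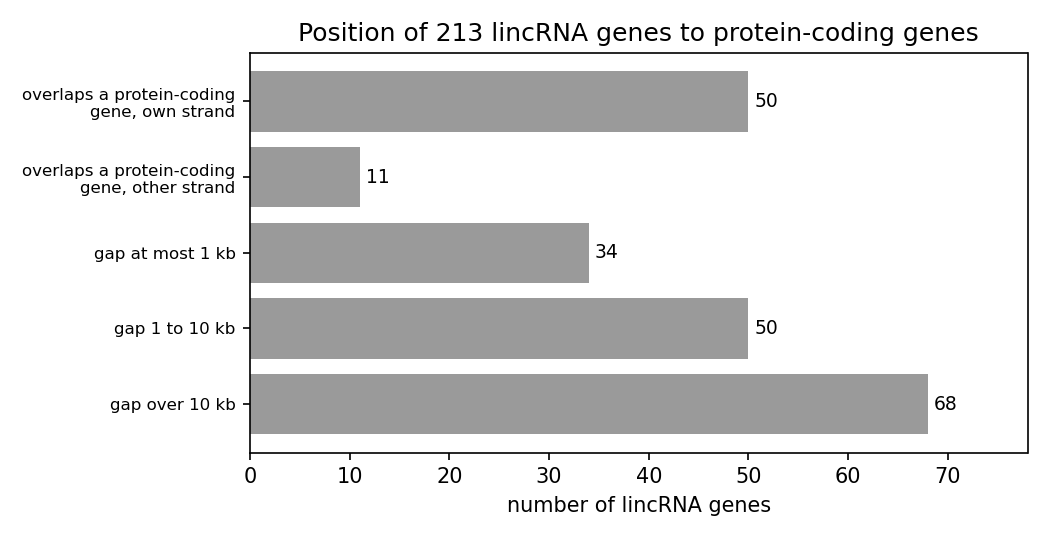
Number of lincRNA genes (x axis) by their position to the nearest protein-coding gene (y axis), for all 213 genes. The 2 overlap classes hold 50 and 11 genes, and 68 genes lie over 10 kb from any protein-coding gene.

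Most of the abundant lincRNA genes sat on or just behind protein-coding genes. Of the 10 with a mean of 100 FPKM or more, 4 overlapped a protein-coding row on their own strand, and 3 began within 1 kb past the 3′ end of one on the same strand. Of the others, Zm00001d000838 and Zm00001d000824, described below, lay 31750 and 102918 bases from their neighbour. Over all 213, 14 had that second arrangement. Whether these are separate transcripts or parts of the neighbouring one was not tested.

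Zm00001d000508 (chromosome 3, 36020109 to 36020746, minus strand) had the highest mean. It stood at 390.0, 302 and 283 FPKM in LW and 867, 689 and 571 FPKM in CW, with every LW library below every CW library. It lay 234 bases past the 3′ end of Zm00001d040292, described as a protein induced upon tuberization, on the same strand.

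Zm00001d022856 (chromosome 1, 172181788 to 172182680) stood at 253, 248 and 338 FPKM in LW and 463, 399 and 132 FPKM in CW. The groups overlapped, with CW replicate 3 below all 3 LW libraries (log2 fold change -0.60, edgeR adjusted p = 0.484). Without that library the log2 fold change was -0.99 (edgeR adjusted p = 0.0652). It overlapped Zm00001d030989 on the same strand. Zm00001d027037 (chromosome 4, 243421990 to 243423270) stood at 258, 179 and 238 FPKM in LW and 201, 204 and 195 FPKM in CW. The groups overlapped (log2 fold change -0.17, edgeR adjusted p = 0.742). Its FPKM was 3570 or more times that of cold shock protein 2 (Zm00001d053908), which it overlaps on the same strand, in every library. That gene was barely detected, so the size of the ratio says little. How reads were divided between the overlapping rows is uncertain.

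Zm00001d001276 (chromosome 7, 170932849 to 170933167) stood at 274, 203 and 207 FPKM in LW and 390.2, 373 and 302 FPKM in CW. All LW values lay below all CW values, but the difference missed the threshold (log2 fold change -0.98, SE 0.27, edgeR adjusted p = 0.0793). It began 44 bases past the 3′ end of Zm00001d022130, a gene of the DUF1677 family, and its FPKM was 0.75 to 0.97 of that gene's in LW and 1.05 to 1.23 of it in CW.

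The same gap of 44 bases separated Zm00001d000709 (chromosome 3, 221923985 to 221924640) from the 3′ end of a chloroplastic phosphoglucomutase gene (Zm00001d044211), an enzyme of starch synthesis and breakdown. This lincRNA gene stood at 93.8, 37.8 and 70.8 FPKM in LW and 349, 345 and 133 FPKM in CW, without overlap (log2 fold change -2.36, SE 0.53, edgeR adjusted p = 0.0513). CW replicate 3 again lay nearest to LW, and without it the gene was called lower (log2 fold change -2.71, edgeR adjusted p = 0.0240).

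Compared between the treatments, few lincRNA genes passed the test. With edgeR's quasi-likelihood test over all genes and a Benjamini-Hochberg adjusted p under 0.05 as the call, 3 of the 213 were higher in LW and 5 were lower. Over all 24704 genes tested, 2.84% were called higher and 2.4% lower, so neither count stands out from the background. At an unadjusted p under 0.05 there were 38 genes (17.8%), against 24.7% of all tested genes. How many calls the test made with 1 library left out depended on the library. Without LW replicate 1, 2 or 3 it called 6, 4 and 1 of the 24704 genes, and without CW replicate 2 it called 0. None of the 8 calls held in those fits, and 1 held without CW replicate 1. Over the 6 fits that leave out a library, the largest shift in log2 fold change of the 8 genes was 0.61. None changed sign, but their groups did not overlap, so the loss of a library could hardly reverse one. Without CW replicate 3 all 8 calls held, among 7 higher and 11 lower, with 12.0% of all genes called. Without CW replicate 1 the counts were 1 higher and 2 lower, with 0.98% of all genes called.

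As a class the genes lay lower in LW relative to all tested genes, by their median. Their median log2 fold change was -0.31, against 0.06 over all tested genes, and 135 of 213 (63.4%) were negative, against 47.4% of all tested genes. Without CW replicate 3 these medians were -0.27 for the lincRNA genes and 0.13 for all genes. Among the 95 genes present in all 6 libraries the median was -0.64 and 72 (75.8%) were negative. Other genes present in all 6 libraries were not compared, so whether this larger shift is particular to lincRNA genes was not tested. The sign depends on the scaling: with libraries scaled by their totals alone, the median of all genes moved to 0.42 and that of the lincRNA genes to 0.04, with 103 negative. The distance between the medians was -0.37 with the TMM scaling, -0.38 with totals, -0.48 with DESeq2 and -0.22 with limma on log2(FPKM + 1), where the median of the lincRNA genes was 0.08 and 100 were negative. Totals scaling gave 5 lincRNA genes higher and 2 lower, against 5.77% and 1.4% of all genes. In these comparisons all genes include those below the FPKM threshold, except with limma, which took only genes at it.

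On the FPKM scale, a smaller share of lincRNA genes than of all tested genes had LW wholly above CW, and a larger share had LW wholly below CW. Every LW value was above every CW value in 30 of the 213 genes (14.1%), against 29.6% of all tested genes. Every LW value was below every CW value in 28 (13.1%), against 7.77% of all tested genes. These counts include the 5 and 7 genes that met the rule through LW or CW alone, in which the choice set the separation. Among the other 201 genes, LW was wholly above CW in 25 (12.4%) and wholly below in 21 (10.4%). CW replicates 1, 2 and 3 were the CW library nearest to LW in 6, 8 and 14 of the 28 and in 10, 7 and 13 of the 30. How this falls out over all tested genes was not compared.

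**Figure D2:**
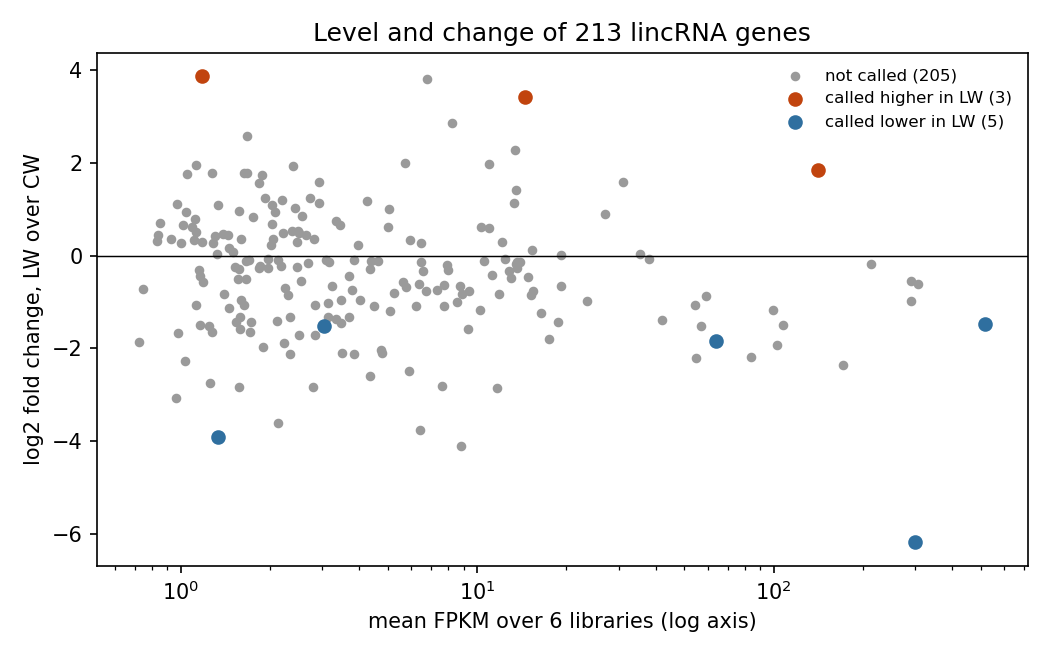
Log2 fold change of LW over CW (y axis, edgeR) against the mean FPKM over 6 libraries (x axis, log scale) for 213 lincRNA genes. The 3 genes called higher and 5 called lower in LW are marked, and 9 of the 10 genes with a mean of 100 FPKM or more lie below 0.

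Together the 213 genes took 0.250%, 0.226% and 0.229% of all counts in LW and 0.401%, 0.363% and 0.260% in CW. The groups did not overlap, at 0.235% ± 0.0129 in LW and 0.341% ± 0.0732 in CW (SD, n = 3 each), and 3 libraries against 3 cannot give an exact permutation p below 0.1. The 10 genes with a mean of 100 FPKM or more held 48.0% to 54.7% of the counts on the 213 in LW and 42.9% to 63.6% in CW. The share of these 10 in all counts was 0.118% ± 0.0158 in LW and 0.199% ± 0.0766 in CW. Their groups overlapped, with CW replicate 3 at 0.112%. Without Zm00001d000838, the gene with the largest fall, the shares of the others among the 213 were 0.235% ± 0.0128 in LW and 0.316% ± 0.0572 in CW. The CW libraries still lay above the LW ones. Shares of 2 other RNA classes also differed without overlap: tRNA rows held 0.00190% to 0.00507% of counts in LW and 0.0128% to 0.0456% in CW, and microRNA precursor rows 0.000282% to 0.000356% in LW and 0.00176% to 0.0196% in CW. The groups overlapped in snRNA rows, at 0.00223% to 0.00528% in LW and 0.00481% to 0.0138% in CW, and in snoRNA rows, at 0.00437% ± 0.000585 in LW and 0.00468% ± 0.000524 in CW (SD, n = 3 each). In all 4 classes, too, the lowest CW value was that of replicate 3. The part of RNA selection in these shares was not tested, and fewer cells of a type and less RNA per cell cannot be told apart in whole leaf.

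lincRNA genes were noisier between replicates than protein-coding genes of like level. The median within-group SD of log2(FPKM + 1) was 0.564 in the 131 lincRNA genes with a mean under 5 FPKM, 0.649 in the 59 between 5 and 20 FPKM, and 0.686 in the 23 above. In protein-coding rows of the same classes it was 0.386, 0.363 and 0.382. The lincRNA genes had shorter annotated spans (median 703 against 3703 bases), so a like FPKM may rest on fewer counts. Overlapping rows may also share reads, and the part of either in the spread was not tested.

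Some lincRNA genes were listed at 0 in 1 library and at 10 FPKM or more in another of the same group. There were 5 of these (2.35%), against 20 protein-coding rows (0.104%), and none was called. Zm00001d027020 (chromosome 4, 235753192 to 235761802), which overlaps another lincRNA row and the protein-coding row Zm00001d053593, was the extreme case. It stood at 414, 262 and 136 FPKM in LW and at 449, 486 and 0 FPKM in CW. Its log2 fold change was -0.55 with CW replicate 3 (edgeR adjusted p = 0.882) and -1.14 without it (edgeR adjusted p = 0.173). Zm00001d000874 (chromosome 2, 102764134 to 102764455) stood at 19.5, 38.2 and 11.9 FPKM in LW and 0, 0 and 11.3 FPKM in CW. Its LW values all lay above its CW values, yet the spread left it uncalled (log2 fold change 2.29, edgeR adjusted p = 0.491).

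Of the genes called higher in LW, Zm00001d022712 (chromosome 1, 35117435 to 35117735, plus strand) was the one with a changed neighbour on its doorstep. It stood at 33.8, 18.1 and 29.1 FPKM in LW and 1.81, 2.53 and 1.58 FPKM in CW. Every LW library was above every CW library by a wide margin. The mean was 27.0 ± 8.05 FPKM in LW and 1.97 ± 0.496 FPKM in CW (SD, n = 3 each), a 10.8-fold rise (log2 fold change 3.43, SE 0.51, edgeR adjusted p = 0.0242).

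Its neighbour, Zm00001d028440 (chromosome 1, 35118009 to 35119004, minus strand), is described as a probable carboxylesterase 8. Carboxylesterases cleave ester bonds of small metabolites, and the plant family includes relatives of the gibberellin receptor. The 2 genes face each other tail to tail across a gap of 273 bases. The carboxylesterase gene stood at 5.56, 11.9 and 6.38 FPKM in LW and 0.46, 0.64 and 0.56 FPKM in CW, also without overlap. It rose 10.8-fold (log2 fold change 3.43, SE 0.48, edgeR adjusted p = 0.0228). The 2 genes shared the direction and size of the change but not the order within LW: replicate 2 was the lowest LW library for the lincRNA gene and the highest for the carboxylesterase gene. The ratio of the lincRNA gene to its neighbour was 6.07, 1.51 and 4.56 in LW and 3.93, 3.95 and 2.82 in CW.

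**Figure D3:**
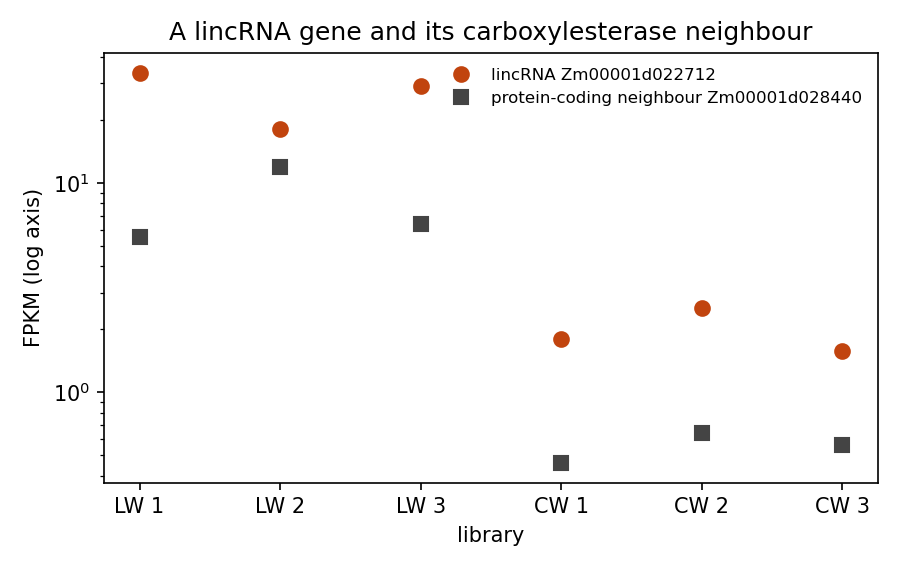
FPKM (y axis, log scale) of the lincRNA gene Zm00001d022712 (circles) and of its carboxylesterase neighbour Zm00001d028440 (squares) in each of the 3 LW and 3 CW libraries. Both are higher in every LW library than in any CW library, and LW 2 is the lowest LW point for the lincRNA gene and the highest for the neighbour.

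Zm00001d001078 (chromosome 7, 3204147 to 3205217, plus strand) had the largest rise by edgeR's fold, from a low level. With limma on log2(FPKM + 1) its log2 fold change was 1.51, below the 3.20 of Zm00001d022712. It stood at 1.30, 2.90 and 2.54 FPKM in LW and 0.12, 0.11 and 0.10 FPKM in CW. It was at the threshold in LW alone, so its choice and its difference are not independent. The rise was 14.6-fold (log2 fold change 3.87, SE 0.77, edgeR adjusted p = 0.0407). The nearest protein-coding gene encodes bZIP-transcription factor 51 (Zm00001d018729) and lies 7974 bases away on the same strand. It stood at 4.91, 12.9 and 6.99 FPKM in LW and 2.26, 5.88 and 4.45 FPKM in CW, with overlap (log2 fold change 0.59, edgeR adjusted p = 0.550).

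Within 100 kb of Zm00001d001078, 6 protein-coding genes were tested and 2 were called, both higher. They were singled out after their values were seen. Phytosulfokine is a peptide hormone that promotes cell growth. Its precursor gene, phytosulfokine peptide precursor1 (Zm00001d018727), stood at 16.4, 16.3 and 26.5 FPKM in LW and 2.23, 0.56 and 1.99 FPKM in CW (log2 fold change 3.29, SE 0.57, edgeR adjusted p = 0.0313). It lay 50641 bases from the lincRNA gene. The other, Zm00001d018730, an RNA-binding protein gene 97161 bases away, stood at 35.6, 55.6 and 43.0 FPKM in LW and 17.9, 11.6 and 14.9 FPKM in CW (log2 fold change 1.24, SE 0.25, edgeR adjusted p = 0.0424).

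Zm00001d000824 (chromosome 2, 56786826 to 56787237, plus strand) was the abundant gene among the risers. It stood at 205, 241 and 246 FPKM in LW and 34.6, 48.4 and 68.6 FPKM in CW, again with a clear space between the groups. The rise was 3.59-fold (log2 fold change 1.84, SE 0.29, edgeR adjusted p = 0.0275). No protein-coding row lay within 100 kb. The nearest, 102918 bases away head to head, is H3C2 (Zm00001d003730), which encodes histone H3.2, a core protein of nucleosomes made mainly during DNA replication. It stood at 0.33, 0.39 and 1.32 FPKM in LW and 3.86, 3.94 and 4.16 FPKM in CW, the opposite direction, and was not called (log2 fold change -2.88, edgeR adjusted p = 0.0711).

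**Figure D4:**
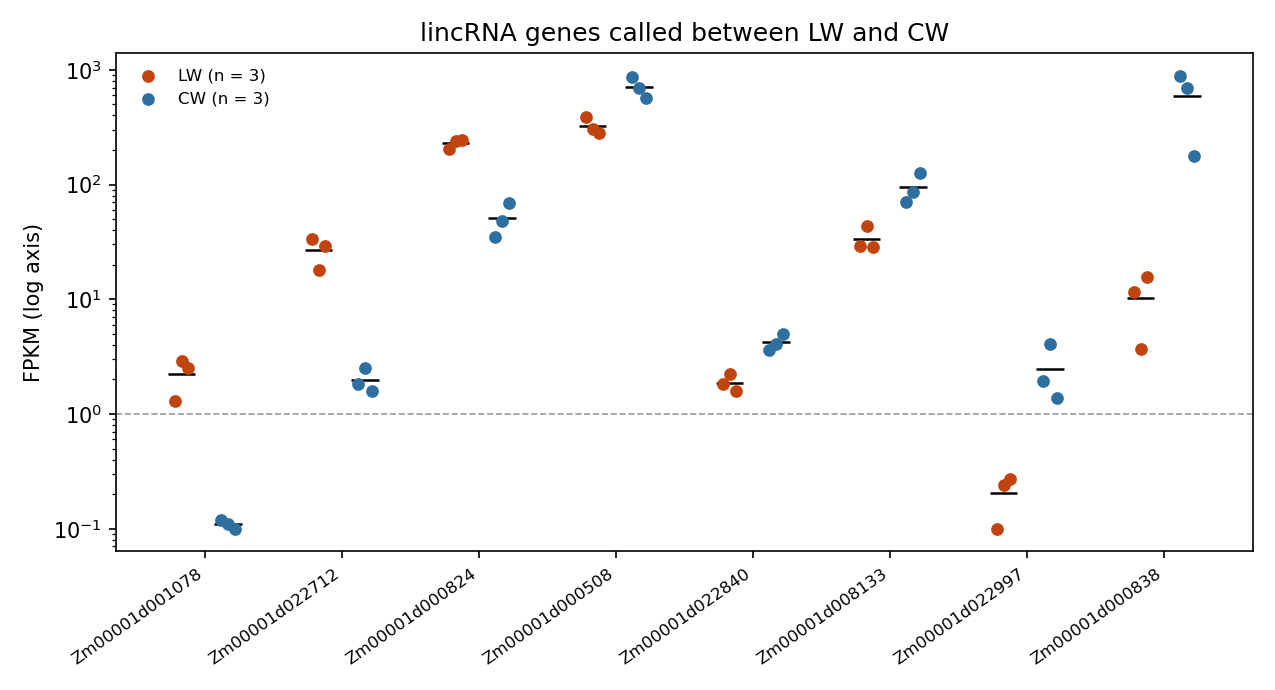
FPKM (y axis, log scale) of the 8 called lincRNA genes in the 3 LW libraries (left of each pair) and the 3 CW libraries (right), with a bar at the group mean and a dashed line at 1 FPKM. The groups do not overlap in any of the 8 genes, and Zm00001d000838 on the far right has the widest gap and the widest CW spread.

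The largest change of all was the fall of Zm00001d000838 (chromosome 2, 66783549 to 66783937, plus strand). It stood at 11.5, 3.69 and 15.5 FPKM in LW and 889, 699 and 177 FPKM in CW. All CW libraries were far above LW, but CW replicate 3 held a fraction of the level of the other CW libraries. The gene was 72.7-fold lower in LW (log2 fold change -6.18, SE 0.88, edgeR adjusted p = 0.0231), and without CW replicate 3 the log2 fold change was -6.62. It made up 0.202%, 0.0706% and 0.294% of all counts on the 213 genes in LW and 9.59%, 8.35% and 2.93% in CW. Its neighbour, 31750 bases away, is described as AUXIN SIGNALING F-BOX 3 (Zm00001d003911), in Arabidopsis an F-box receptor of auxin. That gene stood at 14.1, 14.7 and 14.4 FPKM in LW and 13.2, 10.3 and 17.8 FPKM in CW and was not called (log2 fold change -0.27, edgeR adjusted p = 0.545).

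Zm00001d008133 (chromosome 8, 164512666 to 164515892, minus strand) stood at 28.8, 43.6 and 28.6 FPKM in LW and 70.4, 85.4 and 127 FPKM in CW. Here CW replicate 3 was the highest library, not the one nearest to LW. The fall was 3.58-fold (log2 fold change -1.84, SE 0.30, edgeR adjusted p = 0.0288). Its head-to-head neighbour at 26762 bases is described as methyl esterase 10 (Zm00001d011917). Methyl esterases of Arabidopsis release plant hormones from their methyl esters. That gene stood at 1.91, 0.70 and 1.28 FPKM in LW and 0 FPKM in all CW libraries. It was called higher, the opposite direction to the lincRNA gene (edgeR adjusted p = 0.0440), at least 21.2-fold against a floor of 3 counts per CW library.

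Zm00001d022840 (chromosome 1, 159732161 to 159736533, minus strand) was low in both groups, at 1.81, 2.23 and 1.58 FPKM in LW and 3.63, 4.10 and 4.96 FPKM in CW. Its replicates were close and the groups apart, with a 2.88-fold fall (log2 fold change -1.53, SE 0.28, edgeR adjusted p = 0.0347). Tail to tail with it, 4511 bases away, lies bundle sheath defective2 (Zm00001d030786), a chaperone gene needed for Rubisco assembly in maize. That gene stood at 51.2, 68.8 and 67.7 FPKM in LW and 152, 131 and 69.7 FPKM in CW. The groups were just separated, with CW replicate 3 nearest to LW, and the difference was not called (log2 fold change -1.27, edgeR adjusted p = 0.0714). Without CW replicate 3 it was called lower (log2 fold change -1.56, edgeR adjusted p = 0.0202).

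Zm00001d000508, given above as the most abundant gene, fell 2.76-fold (log2 fold change -1.47, SE 0.31, edgeR adjusted p = 0.0443). The gene 234 bases in front of it, Zm00001d040292, stood at 187, 191 and 133 FPKM in LW and 391, 235 and 346 FPKM in CW. Its groups did not overlap either, and it missed the threshold (log2 fold change -1.27, edgeR adjusted p = 0.0504). With libraries scaled by totals, neither Zm00001d000508 nor Zm00001d022840 nor Zm00001d022997 was called.

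Zm00001d022997 (chromosome 1, 287872010 to 287872773, plus strand) stood at 0.10, 0.24 and 0.27 FPKM in LW and 1.94, 4.07 and 1.39 FPKM in CW. It met the rule through CW alone, so its difference is tied to its choice. It was 15.0-fold lower in LW (log2 fold change -3.91, SE 0.87, edgeR adjusted p = 0.0498). It overlaps Zm00001d034248 on the same strand, and how reads were divided between them is uncertain. That protein-coding row stood at 4.18, 4.80 and 2.11 FPKM in LW and 5.92, 5.14 and 2.21 FPKM in CW, with overlap (log2 fold change -0.62, edgeR adjusted p = 0.519).

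Further genes missed the call narrowly and were singled out after their values were seen. Zm00001d000919 (chromosome 2, 131937958 to 131940034), 809 bases past the 3′ end of an Aux/IAA gene (Zm00001d004697), stood at 24.2, 7.52 and 12.8 FPKM in LW and 1.16, 1.22 and 2.56 FPKM in CW (log2 fold change 2.85, SE 0.64, edgeR adjusted p = 0.0510). Zm00001d001017 (chromosome 2, 215327319 to 215327543), which overlaps Zm00001d006723, stood at 13.9, 9.27 and 15.4 FPKM in LW and 1.54, 0.27 and 0.28 FPKM in CW (log2 fold change 3.81, SE 0.94, edgeR adjusted p = 0.0634). In both the groups did not overlap. Zm00001d001192 (chromosome 7, 102996443 to 102997073) stood at 20.6, 17.0 and 33.3 FPKM in LW and 118, 108 and 31.4 FPKM in CW, and its CW replicate 3 lay within the LW range (log2 fold change -2.22, SE 0.55, edgeR adjusted p = 0.0633). Without CW replicate 3, Zm00001d001192 was called lower (log2 fold change -2.62, edgeR adjusted p = 0.0186), Zm00001d000919 was called higher (log2 fold change 3.28, edgeR adjusted p = 0.0395), and Zm00001d001017 was not called (log2 fold change 3.43, edgeR adjusted p = 0.0633).

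Set beside their nearest protein-coding rows by start position, the 213 genes had 207 different neighbours, and the neighbour of 160 was tested. Of these neighbours 12 were called (7.5%), against 5.27% of all protein-coding rows tested, 5 of them higher and 7 lower. In 2 cases the lincRNA gene was called as well: the carboxylesterase pair, in the same direction, and the methyl esterase pair, in opposite directions.

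The other called neighbours included photosynthesis genes whose lincRNA was not called. The gene of light harvesting complex A1 (Zm00001d006663), an antenna protein of photosystem I, stood at 647, 438 and 283 FPKM in LW and 4253, 4665 and 3129 FPKM in CW (log2 fold change -3.47, SE 0.48, edgeR adjusted p = 0.0228). The lincRNA gene 7941 bases past its 3′ end, Zm00001d001014, stood at 0, 0.34 and 0.94 FPKM in LW and 2.06, 1.71 and 1.18 FPKM in CW (log2 fold change -2.28, edgeR adjusted p = 0.401). These values point the same way, but the lincRNA gene met the rule through CW alone.

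Only 29 bases separated Zm00001d022998 from the start of the gene of photosystem I reaction center subunit III (Zm00001d034283), which takes part in plastocyanin docking. The lincRNA gene stood at 5.76, 12.2 and 4.46 FPKM in LW and 8.40, 8.29 and 14.2 FPKM in CW, with overlap (log2 fold change -0.83, edgeR adjusted p = 0.323). The photosystem gene stood at 689, 826 and 516 FPKM in LW and 2500.0, 2101 and 2616 FPKM in CW, without overlap (log2 fold change -2.18, SE 0.31, edgeR adjusted p = 0.0234). The level differed by orders of magnitude across these few bases.

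Zm00001d027154 lay 2001 bases before the start of an F-box gene (Zm00001d046922) described as AFR, a component of far-red light signalling in Arabidopsis. It stood at 0.17, 0.66 and 0.35 FPKM in LW and 6.03, 1.29 and 4.29 FPKM in CW (log2 fold change -3.61, edgeR adjusted p = 0.0717). The F-box gene stood at 36.8, 40.4 and 51.2 FPKM in LW and 108, 142 and 121 FPKM in CW (log2 fold change -1.89, SE 0.25, edgeR adjusted p = 0.0216). Neither gene had overlapping groups, though the lincRNA gene was another that met the rule through CW alone.

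In contrast, Zm00001d022650 went the other way from its neighbour at 695 bases, an alpha/beta-hydrolase gene (Zm00001d027267). The lincRNA gene stood at 7.13, 6.19 and 5.52 FPKM in LW and 1.01, 1.44 and 4.16 FPKM in CW, without overlap but uncalled (log2 fold change 1.18, edgeR adjusted p = 0.293). The hydrolase gene stood at 9.71, 8.01 and 10.4 FPKM in LW and 18.4, 23.0 and 16.7 FPKM in CW (log2 fold change -1.40, SE 0.26, edgeR adjusted p = 0.0358). Overlapping rows could differ as well: Zm00001d022678 stood at 9.91, 20.3 and 14.1 FPKM in LW and 19.1, 7.80 and 10.9 FPKM in CW (log2 fold change -0.14, edgeR adjusted p = 0.870). The row umc115 (Zm00001d027851) that it overlaps on the same strand stood at 84.6, 137 and 87.5 FPKM in LW and 29.6, 27.9 and 36.1 FPKM in CW (log2 fold change 1.36, SE 0.25, edgeR adjusted p = 0.0344).

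Across loci the log2 fold changes of a lincRNA gene and its neighbour were weakly related at most. Over the 160 pairs the log2 fold changes had Spearman's rho = 0.15 and Pearson's r = 0.05, and 86 pairs (53.8%) shared a sign. Over the 72 pairs that overlapped or lay within 1 kb, rho was 0.31 and r was 0.31, with 41 sharing a sign. It was 0.20 over 44 pairs at 1 to 10 kb and -0.17 over 44 pairs beyond 10 kb. Protein-coding genes paired by the same rule had rho = 0.10 over 16112 pairs and 0.11 over the 4214 within 1 kb. All points come from the same 6 libraries, and overlapping rows may share reads, so these are descriptions across genes, which are not independent replicates.

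**Figure D5:**
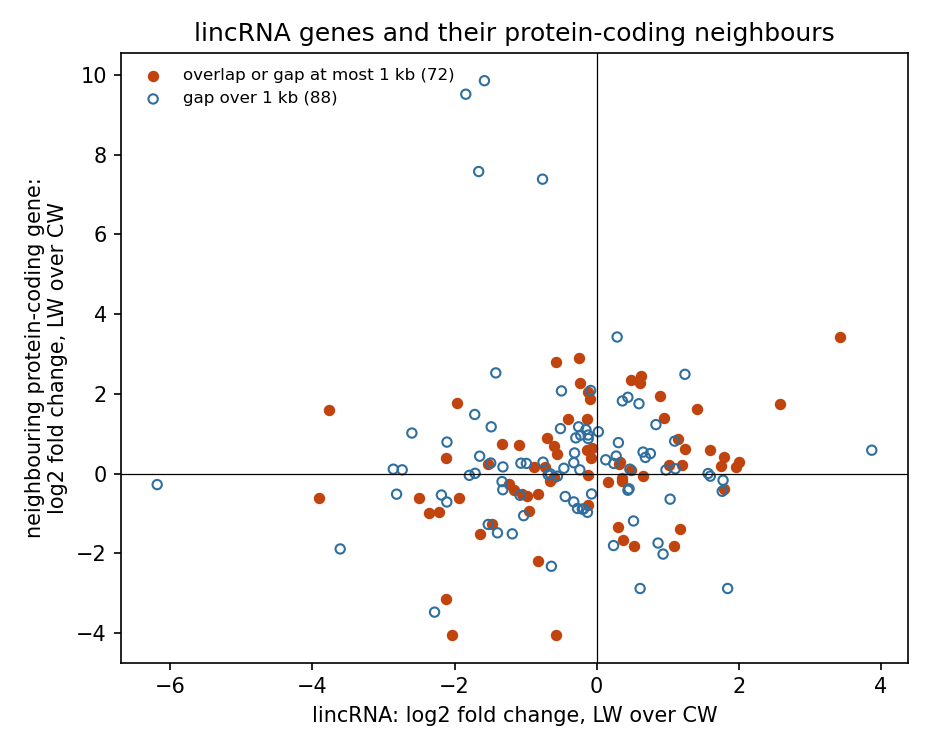
Log2 fold change of LW over CW for the neighbouring protein-coding gene (y axis) against that of the lincRNA gene (x axis), for 160 pairs. Filled points are the 72 pairs that overlap or lie within 1 kb (rho = 0.31), and open points are the 88 pairs farther apart, with the 2 topmost points belonging to genes with no count in CW.

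The machinery that makes or degrades noncoding RNA gave no call with edgeR on all 6 libraries. Of 144 rows matched by name (argonautes, dicer-like proteins, RNA-dependent RNA polymerases, exosome, decapping and decay factors), 86 were tested and 0 were called by edgeR, against 5.23% of all tested genes. At an unadjusted p under 0.05 there were 14 (16.3%), against 24.7% of all tested genes. Without CW replicate 3 edgeR called 6 genes of the list, with 12.0% of all genes called. DESeq2 called 4 higher and 1 lower of 91 (5.49%), against 17.2% of all its genes. limma on log2(FPKM + 1) called 5 higher and 1 lower of 63 (9.52%), against 15.8% of all its genes. The median log2 fold change with edgeR on all 6 libraries was 0.16, with 50 positive and 36 negative, against a median of 0.06 over all genes. The smallest adjusted p was that of argonaute1d (0.0524 with edgeR), at 0.19, 0.30 and 0.16 FPKM in LW and 0 in all CW libraries. Argonautes load small RNAs to guide silencing, and argonaute101 stood at 4.23, 7.73 and 14.5 FPKM in LW and 2.43, 1.55 and 1.11 FPKM in CW, without overlap (log2 fold change 2.01, SE 0.50, edgeR adjusted p = 0.0646). A probable RNA-dependent RNA polymerase 5 (Zm00001d004415) lay the other way, at 1.98, 1.38 and 1.96 FPKM in LW and 4.41, 3.76 and 5.31 FPKM in CW, without overlap (log2 fold change -1.67, SE 0.44, edgeR adjusted p = 0.0716). These genes were singled out after their values were seen.

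Other tests gave more calls on the same genes. DESeq2 called 5 lincRNA genes higher and 28 lower of 211 it tested, with 17.2% of all its genes called. limma on log2(FPKM + 1) called 10 higher and 9 lower, with 15.8% of all its genes called. All 8 genes called by edgeR were among those called by each of these tests.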

How the data were processed

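Total leaf RNA was sequenced as paired ends after poly(A) isolation, per the labels' protocols, which also mention a poly(A)- fraction. Tools in the submitters' processing notes, given without roles, are HISAT2 2.0, StringTie 1.3.4, FastQC 0.10.1 and edgeR. The authors deposited FPKM and an estimated count per gene and library. The counts are whole, but 28.6% to 31.4% of those from 1 to 40 are multiples of 4, so they were treated as estimates. Groups followed the titles (the source name of CW replicate 2 carries number 3).

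edgeR 4.0.16 (R 4.3.3; TMM, filterByExpr, quasi-likelihood, group as the only term) was fitted to all 6 libraries and 24704 genes, with Benjamini-Hochberg adjustment. limma 3.58.1 on log2(FPKM + 1) and DESeq2 1.42.0 were alternatives. A floor of 3 counts covers counting error only. Named genes were called members with separated groups, the 6 highest by mean FPKM, their neighbours and those at the threshold. The neighbour was the protein-coding row nearest by start. Members and lists were chosen with earlier results of these data known, and the silencing list's UPF pattern was narrowed after matched names were read. Sequences were not used here.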

Additional observations from a re-analysis of the deposited data

How the results depend on the processing

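The counts of called lincRNA genes, 3 higher and 5 lower in LW with edgeR, depended on the test, on its settings and on which library was left out. DESeq2 gave 5 higher and 28 lower, scaling by totals 5 and 2, limma on log2(FPKM + 1) 10 and 9, and limma on log2(FPKM + 0.1) 7 and 7. The deviations of same-numbered libraries had correlations of -0.0352, -0.00209 and -0.251. So few values from so few libraries cannot show whether the numbers pair the samples. A fit with the replicate block called 0 higher, 0 lower and 3 genes in all, with 32 of the 213 at an unadjusted p under 0.05. Leaving out each library in turn gave 0 to 7 higher and 0 to 11 lower. Those fits called 6, 4 and 1 genes in all without LW replicates 1, 2 and 3, and 242, 0 and 2965 without CW replicates 1, 2 and 3. The log2 fold changes of the 8 genes shifted by at most 0.61. None changed sign, which groups without overlap could hardly do on the loss of a library. Pairs with both genes called numbered 2 with edgeR, 11 with DESeq2, 0 with the replicate block and 0 to 5 leaving out each library. Silencing and decay genes called numbered 0 with edgeR, 5 with DESeq2, 2 with totals, and 6 and 2 with limma at pseudocounts of 1 and 0.1. Leaving out each library gave 0 to 6 of them, with the 6 found without CW replicate 3. Why the counts moved was not tested. Without the filter on low counts, 4 were higher and 5 lower. Choosing genes at 1 FPKM in all 6 libraries, at 0.5 FPKM, by mean FPKM or without overlap gave 2 to 3 higher and 4 to 5 lower, and the other definitions of a neighbour gave 2 pairs. These choices reread the same fit, so no gene's call could change. Of the 8 calls, 7 were kept with no filter and 5 with totals. Over all alternatives, single-gene results gave 191 with the same call, 7 newly past the threshold and 64 no longer past it, and no called gene changed direction.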

Other observations

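Below the threshold, 1 lincRNA row was called. Zm00001d000498 (chromosome 3, 24648855 to 24654670) stood at 1.58, 0.20 and 0.87 FPKM in LW and 0 in all CW libraries (edgeR adjusted p = 0.0443), at least 38.4-fold higher against 3 counts per CW library. Its span lies within that of the lincRNA gene Zm00001d000497 on the same strand. That gene stood at 2.34, 2.31 and 4.55 FPKM in LW and 2.56, 0.69 and 1.80 FPKM in CW and was not called (log2 fold change 0.52, edgeR adjusted p = 0.597). Zm00001d000499, which Zm00001d000498 also overlaps, was not called either (edgeR adjusted p = 0.578). How reads were divided between these rows is uncertain, so the 0 in CW is that of the row, not of the locus. A protein-coding gene without a description, Zm00001d034902, stood at 0.25, 0.93 and 0.43 FPKM in LW and 0 in CW (edgeR adjusted p = 0.0407), at least 26.8-fold higher, and the lincRNA gene Zm00001d023030 lay 1757 bases away. That lincRNA gene stood at 8.14, 3.32 and 4.95 FPKM in LW and 7.30, 17.1 and 14.9 FPKM in CW (log2 fold change -1.58, edgeR adjusted p = 0.143).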
